A study of Mus musculus with 2 samples.

Results

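The costimulatory and checkpoint genes described here are Cd80, Cd86, Cd40, Cd274, Pdcd1lg2, Icosl, Havcr2, Lgals9 and Cd200r1, chosen by symbol for what they encode. Earlier results of these data were known when they were chosen. All 9 were found among the 46095 genes of the count table, and 8 averaged 1 CPM (reads per 1000000 counted reads) or more over both libraries, as did 12495 genes in all. The missing gene was Pdcd1lg2, with a mean just under that limit. The libraries came from mouse C57BL/6 macrophages grown from femur and tibia marrow for 5 days in medium containing M-CSF, the growth factor of macrophages, at 100 ng/ml. The knockout library, called KO here, is labelled TIPE1-/-, and the design text describes LyzM-Cre mice with floxed Tipe1 alleles, in which Cre is expressed from the Lyz2 locus of myeloid cells. The control library, called WT here, is labelled wild type, and the same text describes its mice as floxed without Cre, so the genotypes differ in Cre as well as in Tipe1. The sources used here give neither the age nor the number of mice behind each library. The series title names macrophage polarization as the subject.

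T cells need an antigen signal and a second signal from the cell that presents the antigen, and the genes described here encode much of that second signal and its brakes. CD80 and CD86 bind the activating receptor CD28 and the inhibitory receptor CTLA-4, ICOSL binds ICOS, and CD40 receives CD40 ligand from T helper cells. PD-L1 (Cd274) and PD-L2 (Pdcd1lg2) bind the inhibitory receptor PD-1, galectin-9 (Lgals9) is a ligand of Tim-3 (Havcr2), and CD200R1 restrains myeloid cells that meet CD200. In macrophages interferons and Toll-like receptor signals are known to raise Cd40, Cd86 and Cd274 transcripts.

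With 1 library per genotype, no difference given here has a replicate check, and no p-value was computed. Each ratio is CPM in KO over CPM in WT, followed in parentheses by its exact 95% counting interval, which covers counting error only. A gene was called higher or lower when the ratio was 1.5-fold or more and the interval excluded 1. The libraries held 11782664 (WT) and 15815956 (KO) counted reads, and 3 reads corresponded to 0.248 CPM and 0.194 CPM. Tnfaip8l1, which encodes TIPE1, had 21 reads in WT and 3 in KO, a ratio of 0.112 (0.0214 to 0.375). Which exons were deleted is not stated in the labels, and the remaining reads may lie outside them.

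The sequences before the start sites of Cd274, Pdcd1lg2 and Lgals9 are shown because the first and second are neighbours at very different levels and the third carries an interferon-type motif. They are RefSeq sequences of GRCm38.p6, 5′ to 3′ on the strand of the gene, with capitals for motif matches. RefSeq promoter windows were matched for 6 of the 9 genes, the others being Cd86, Cd40 and Cd200r1.
Cd274: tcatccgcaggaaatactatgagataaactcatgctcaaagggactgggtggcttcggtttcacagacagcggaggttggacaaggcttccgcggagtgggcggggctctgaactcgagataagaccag
Pdcd1lg2: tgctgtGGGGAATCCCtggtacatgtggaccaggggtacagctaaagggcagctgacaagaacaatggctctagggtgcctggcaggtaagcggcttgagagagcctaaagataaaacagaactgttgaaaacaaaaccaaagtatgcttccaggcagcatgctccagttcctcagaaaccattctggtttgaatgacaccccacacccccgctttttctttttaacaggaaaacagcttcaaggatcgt
Lgals9: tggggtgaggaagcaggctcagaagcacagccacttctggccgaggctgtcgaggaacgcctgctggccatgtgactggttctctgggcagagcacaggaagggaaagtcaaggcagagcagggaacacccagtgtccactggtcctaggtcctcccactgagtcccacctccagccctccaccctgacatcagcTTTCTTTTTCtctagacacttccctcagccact
The Cd274 stretch is the 129 bases at chr19:29367309-29367437 on the plus strand, the Pdcd1lg2 stretch the 250 bases at chr19:29410669-29410918 on the plus strand, and the Lgals9 stretch the 228 bases at chr11:78984947-78985174 on the minus strand. Bases within exons of coding transcripts were left out, 121 of the 250 for Cd274 and 22 for Lgals9. Each 250-base sequence was searched whole, on both strands, for 2 copies of GAAA with 2 bases between them (the interferon-stimulated response element, ISRE), TTCNNNGAA (the STAT element, GAS), the NF-kB consensus by its name and GAGGAAGT (PU.1). Lgals9 held an ISRE match 55 to 46 bases before its start, in capitals above, on the opposite strand, and a second ISRE match lay 16 to 25 bases after the start. The share of all 32851 RefSeq windows with an ISRE match in the 250 bases was 2.98%. Pdcd1lg2 held an NF-kB match 244 to 235 bases before its start, read on either strand, and Icosl held an NF-kB match as well, against 7.25% of all windows. Havcr2 held a PU.1 match next to its start, against 2.44% of windows. No match to these letters was found in the 250 bases of Cd274 or Cd80, and no 2 matches of different motifs overlapped. These are matches of letters and not measured binding sites.

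Cd274 and Cd40, which encode PD-L1 and the CD40 receptor, stood higher in KO, whereas the CD28 ligands Cd80 and Cd86 were close to level. Cd274 and Cd40 were called higher (2 of 8) and 0 of 8 were called lower. Among all 12495 genes 6.47% were called higher and 7.23% lower. With 2-fold needed for a call Cd40 alone was called higher, beside 2.59% of all genes higher and 4.78% lower. Lgals9 and Icosl were higher by less than 1.5-fold, Havcr2 was lower by less than 1.5-fold, and Cd80, Cd86 and Cd200r1 had intervals that included 1. The median log2 ratio of the 8 genes, with 0.5 CPM added, was 0.24, beside 0.01 over all genes.

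**Figure D1:**
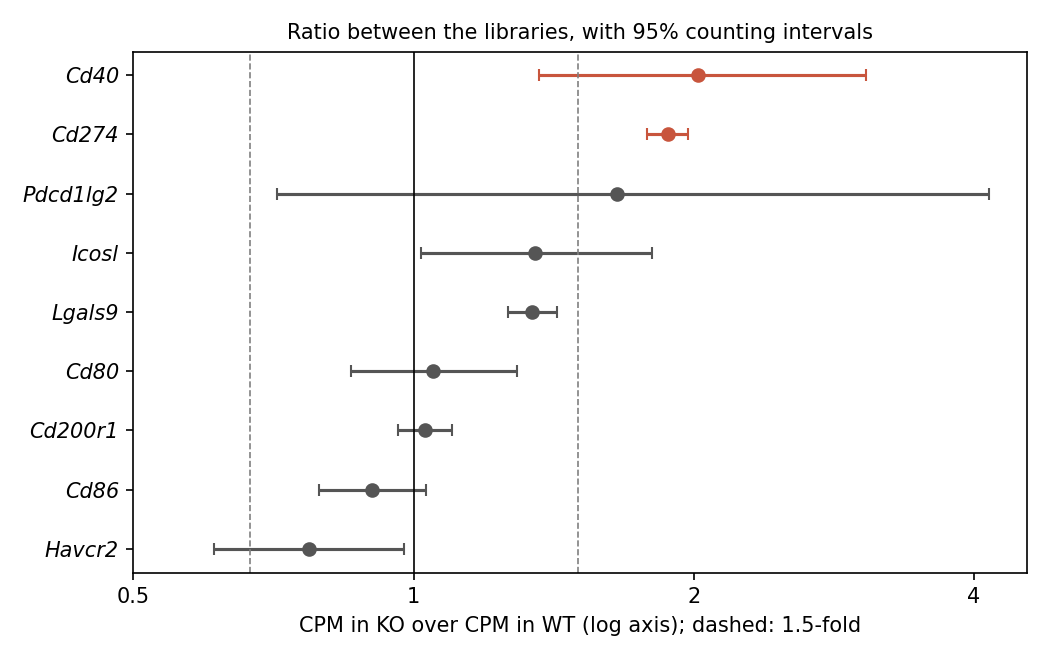
Ratio of CPM in KO over CPM in WT for each of the 9 genes on a log axis. Points are the ratios, bars the 95% counting intervals, and dashed lines mark 1.5-fold; Cd40 (2.02) and Cd274 (1.87), in red, are the genes called higher, and the bar of Pdcd1lg2 is the widest.

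Cd274, which encodes PD-L1 (chromosome 19, 29367455 to 29388095, protein-coding, plus strand), had 2148 reads in WT and 5144 in KO. These are 178 CPM (170 to 186, exact Poisson interval) and 333 CPM (324 to 343), and the intervals lie far apart. The ratio was 1.87 (1.78 to 1.97), and 316 of the 12495 genes, 2.53%, had a higher log2 ratio. Under the 5 scalings of the libraries that were tried the ratio ran from 1.78 to 1.89. Among the 1404 genes within 2-fold of its mean CPM, 6.41% were called higher.

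Cd274 starts 65 bases from the end of the span of Plgrkt, a plasminogen receptor gene on the other strand, so that the 2 genes share their start region. Plgrkt had 52.7 CPM in WT and 56.4 CPM in KO, a ratio of 1.07 (0.966 to 1.19), whose interval lies below that of Cd274. An annotated antisense gene, AC119228.1, shares 511 exonic bases with Cd274 and was not in the table under that name. Whether counting used strand is not stated in the labels. Antisense reads from the shared bases could be counted in Cd274 if strand was ignored.

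Pdcd1lg2, which encodes PD-L2 (chromosome 19, 29410919 to 29471161, plus strand), lies 22824 bases beyond Cd274. It had 9 reads in WT and 19 in KO, 0.745 CPM (0.341 to 1.41) and 1.23 CPM (0.741 to 1.92). The 2 intervals overlap, and the ratio of 1.65 (0.712 to 4.15) is not resolved at this depth. Cd274 had 239 reads for each Pdcd1lg2 read in WT and 271 in KO. The change of that number between the libraries was 1.13-fold (0.451 to 2.64). Ric1, the next coding gene beyond Pdcd1lg2, had a ratio of 1.16 (1.07 to 1.25).

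The CD28 ligands lie on chromosome 16 and were at moderate levels in both libraries. Cd80 (38455561 to 38496335, plus strand) had 167 reads in WT and 224 in KO, 13.8 CPM (11.8 to 16.1) and 14.5 CPM (12.7 to 16.5). Its ratio was 1.05 (0.856 to 1.29), and 0.999 when total counts replaced the TMM scaling. Cd86 (36603869 to 36666081, minus strand) had 430 and 496 reads, 35.6 CPM (32.3 to 39.1) and 32.1 CPM (29.4 to 35.1), a ratio of 0.903 (0.792 to 1.03). The intervals of both genes exclude a 1.5-fold difference in either direction as far as counting error goes. Reads of Cd80 for each read of Cd86, which need no scaling of the libraries, were 0.388 in WT and 0.452 in KO, a change of 1.16-fold (0.910 to 1.49).

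The balance between PD-L1 and the CD28 ligands differed between the libraries. There were 5.00 Cd274 reads for each Cd86 read in WT and 10.4 in KO, a change of 2.08-fold (1.80 to 2.39). For each Cd80 read there were 12.9 and 23.0 Cd274 reads, a change of 1.79-fold (1.44 to 2.21). These numbers are ratios of reads within a library and depend on the lengths of the transcripts, but their change between libraries does not. Of the 36 pairs among the 9 genes, 18 had an interval of the change that excluded 1, counting error only. The pairs share genes, so they are not independent. The share among pairs of other genes was not computed, so this count is not read as a trait of the 9 genes.

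Icosl, the ligand gene of the T cell receptor ICOS (chromosome 10, 78069302 to 78083913, plus strand), had 80 reads in WT and 138 in KO. These are 6.62 CPM (5.25 to 8.24) and 8.94 CPM (7.51 to 10.6), and the 2 intervals overlap. The ratio of 1.35 had an interval from 1.02 to 1.80, which excludes 1 narrowly and includes 1.5. Icosl and Lgals9 had nearly the same ratio, and the interval of the difference between them, as a ratio of ratios, ran from 0.754 to 1.35.

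Cd40, the receptor through which T helper cells license antigen-presenting cells (chromosome 2, 165055627 to 165072948, plus strand), was at a low level. It had 36 reads in WT and 93 in KO, 2.98 CPM (2.09 to 4.13) and 6.03 CPM (4.87 to 7.38). The intervals do not overlap, and the ratio was 2.02 (1.36 to 3.06), or 1.93 with total counts. Among the 2491 genes within 2-fold of its mean CPM, 10.5% were called higher and 15.9% lower, so calls in both directions were more frequent at this level than over all genes. The ratios of Cd40 and Cd274 differed by 1.08-fold (0.724 to 1.64), so their order is not resolved.

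Lgals9, which encodes galectin-9 (chromosome 11, 78962974 to 78984946, minus strand), had 1695 reads in WT and 2903 in KO. The levels of 140 CPM (134 to 147) and 188 CPM (181 to 195) do not overlap in their intervals. The ratio was 1.34 (1.26 to 1.42), with an interval that stays below 1.5, and 1.28 with total counts. Its 3′ end lies 2720 bases from the 3′ end of Nos2, the neighbouring coding gene on the other strand, which had 84 reads in WT and 52 in KO, a ratio of 0.485 (0.336 to 0.693). Ksr1, the coding neighbour on the other side, had 83 and 133 reads, a ratio of 1.25 (0.947 to 1.67).

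Havcr2, which encodes the Tim-3 receptor (chromosome 11, 46454935 to 46481255, plus strand), had 148 reads in WT and 146 in KO, at the larger depth of the latter. These are 12.3 CPM (10.4 to 14.4) and 9.46 CPM (7.99 to 11.1), and the intervals overlap. It was 1.29-fold lower in KO (1.02 to 1.64), the lowest ratio of the 9 genes, with 86.5% of all genes at a higher log2 ratio. Its ligand gene and the receptor gene thus stood in opposite directions, with 11.5 Lgals9 reads for each Havcr2 read in WT and 19.9 in KO, a change of 1.74-fold (1.36 to 2.21).

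Cd200r1, the inhibitory receptor gene for CD200 (chromosome 16, 44765736 to 44794978, plus strand), had 1521 reads in WT and 1997 in KO. The levels were 126 CPM (120 to 132) and 129 CPM (124 to 135), a ratio of 1.03 (0.961 to 1.10), or 0.978 with total counts. This was the most narrowly bounded ratio near 1 of the 9 genes. Its neighbour Cd200r4, 16755 bases away, is a related receptor gene and had 91.2 CPM in WT and 77.1 CPM in KO, a ratio of 0.845 (0.777 to 0.918). The Cd200r genes resemble each other, and the labels do not state how shared reads were counted, so the split between them is uncertain. Cd200r2 and Cd200r3 had 3 to 5 reads in each library.

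**Figure D2:**
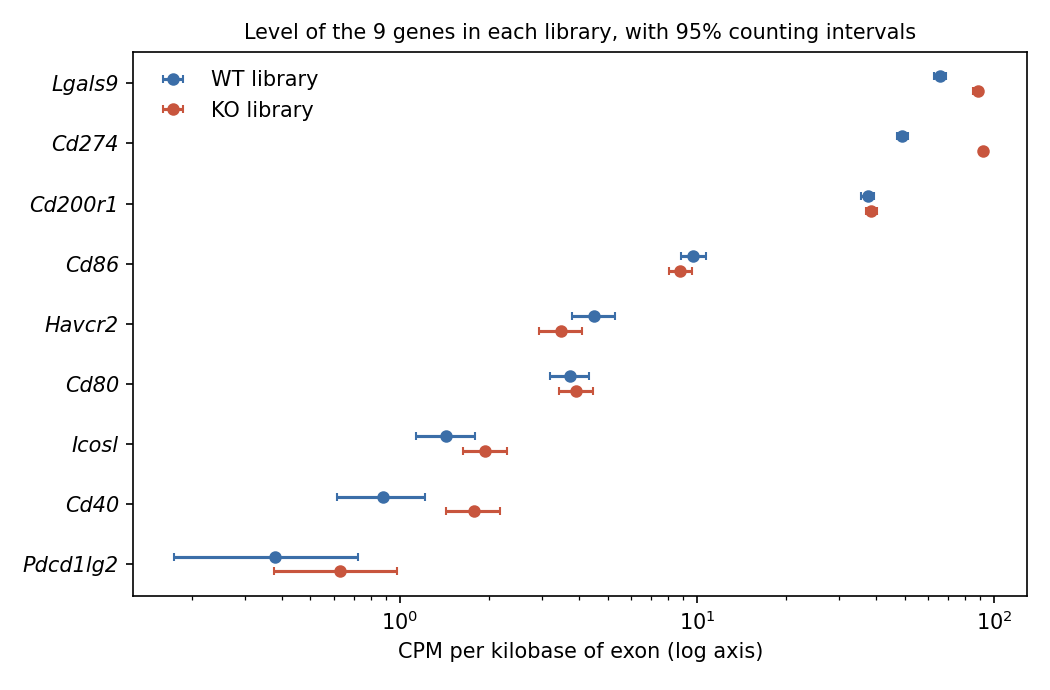
Level of each gene per length, in CPM per kilobase of exon on a log axis, in WT (blue) and the KO library (red), with 95% counting intervals as bars. Lgals9, Cd274 and Cd200r1 lie well above the other 6 genes in both libraries, and the separation between colours is widest for Cd274 and Cd40.

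Levels were compared between genes per kilobase of the exons annotated in GENCODE M21. In the WT library Lgals9 was highest at 65.7 CPM per kilobase, before Cd274 at 49.1 and Cd200r1 at 37.6 CPM per kilobase. Cd86 followed at 9.72, Havcr2 at 4.50, Cd80 at 3.73, Icosl at 1.43, Cd40 at 0.875 and Pdcd1lg2 at 0.380 CPM per kilobase. The intervals of neighbours in this order overlapped for Havcr2 and Cd80, for Icosl and Cd40, and for Cd40 and Pdcd1lg2. In the KO library Cd274 was first at 92.0 and Lgals9 second at 88.0 CPM per kilobase, with overlapping intervals, and Cd80 (3.92) came before Havcr2 (3.48), also with overlapping intervals. The other places in the order were the same as in WT. Cd274 made up 34.5% of the reads of all 9 genes in WT and 46.1% in KO, while Cd200r1 made up 24.4% and 17.9%. Summed over the 9 genes the level was 516 CPM in WT and 723 CPM in KO.

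**Figure D3:**
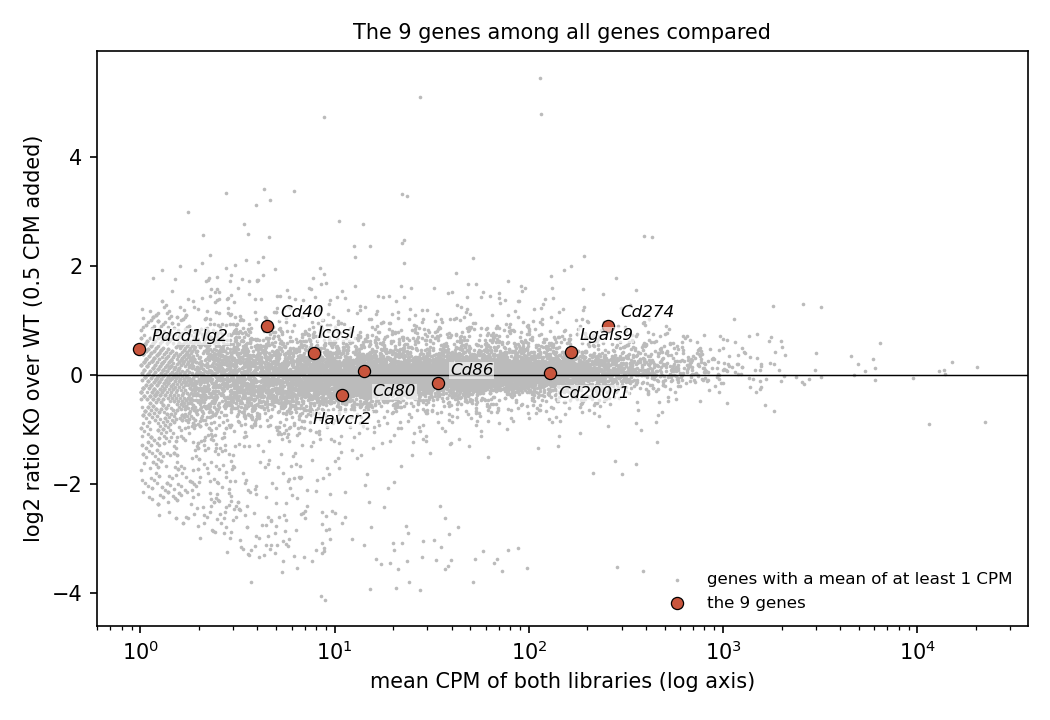
Log2 ratio of the KO over the WT library, with 0.5 CPM added, against the mean CPM of both libraries on a log axis. Grey points are the 12495 genes averaging 1 CPM or more and red points the 9 genes, of which Cd274 and Cd40 lie above most grey points at their levels and Pdcd1lg2 lies at its left border.

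Of 11 genes for receptors and ligands on the lymphocyte side, 7 averaged under 1 CPM. Ctla4 had 0 reads in WT and 1 in KO, Cd40lg had 0 in both, and Icos, Pdcd1 and Lag3 had 3 in each. Tigit had 1 read in each library and Cd96 had 3 and 4. Cd200, the ligand gene of CD200R1, had 189 reads in WT and 500 in KO, 15.6 and 32.4 CPM, and was called higher at 2.07-fold (1.75 to 2.46). Cd28, the activating receptor gene of T cells that CD80 and CD86 engage, had 133 and 68 reads and was called lower at 2.50-fold (1.85 to 3.40). Btla, an inhibitory receptor of lymphocytes, had 25 and 9 reads and was called lower at 3.55-fold (1.60 to 8.64), and Cd226 had 33 and 26 reads. Of the 10 T and NK cell markers the highest was Cd8a at 1.90 CPM in WT and 3.31 in KO, and their sum was 10.1 and 11.6 CPM. Cd3e, a chain of the T cell receptor complex, had 20 reads in each library, so Cd28 had more reads than Cd3e in both.

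Among other ligand genes listed with the B7 and immunoglobulin families, Icam1 was higher and Cd24a, which belongs to neither family, was lower. Of 9 genes averaging 1 CPM or more, 1 was called higher and 1 lower, beside 6.47% and 7.23% of all genes. The median log2 ratio was 0.09. Icam1, the adhesion ligand of the integrin LFA-1, had 86.2 CPM in WT and 146 CPM in KO, a ratio of 1.69 (1.57 to 1.82). Cd24a was lower by 1.51-fold (1.23 to 1.84) and was not called with DESeq2 size factors. Cd47, the signal that restrains uptake by macrophages, had a ratio of 1.33 (1.26 to 1.40), and Nectin2 was 1.28-fold lower (1.04 to 1.57). Vsir, which encodes the checkpoint protein VISTA, had the highest CPM of this list, 520 in WT and 457 in KO, a ratio of 0.879 (0.849 to 0.909). Vtcn1, Btn1a1 and Btn2a2 were listed at 0 in both libraries.

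Costimulatory genes of the TNF family were mostly at low levels. Of 6 averaging 1 CPM or more, 3 were called higher and 1 lower, with a median log2 ratio of 0.41. Over all genes 6.47% were called higher and 7.23% lower, and within 2-fold of the mean CPM of Cd40 10.5% and 15.9%. Tnfrsf14, which encodes the receptor HVEM that engages BTLA, was the most abundant, at 50.3 CPM in WT and 80.5 CPM in KO, a ratio of 1.60 (1.45 to 1.77). Tnfsf9, the ligand gene of 4-1BB, had a ratio of 1.14 (0.905 to 1.44). The other calls rested on fewer reads. Tnfsf15 had 19 in WT and 107 in KO, Tnfsf10 had 39 and 82, and Tnfsf14, another ligand of HVEM, had 39 and 12.

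The list of inhibitory receptors of myeloid cells, without Havcr2 and Cd200r1, had the highest median log2 ratio of the 8 pathway lists, 0.50. It also holds related receptors that are not inhibitory, such as Siglec1, Timd4 and Cd200r4. Its median and counts are therefore not those of inhibitory receptors alone. Of 17 listed genes averaging 1 CPM or more, 6 were called higher and 1 lower, beside 6.47% and 7.23% of all genes. With total counts 5 were called higher and 2 lower, beside 5.21% and 8.49% of all genes. There Cd72 was no longer called and Fcgr2b, an inhibitory Fc receptor gene, was called lower. Siglece stood at 3.97 CPM in WT and 43.4 CPM in KO, and Pilra at 25.4 and 81.7 CPM. Clec4a2 and Lair1, which encode receptors with inhibitory tails, had ratios of 1.78 (1.67 to 1.90) and 1.67 (1.57 to 1.77). Cd72 and Timd4 were the other higher genes, with Timd4, a Tim family receptor for phosphatidylserine, at 3 reads in WT and 32 in KO, a ratio of 8.35 (2.61 to 42.6). Cd300a was 1.64-fold lower (1.54 to 1.75). Havcr1 and Timd2, the other Tim genes, were listed at 0. The Siglec, Pilr, Clec4 and Cd300 families hold close copies, so the split of reads within them is uncertain.

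**Figure D4:**
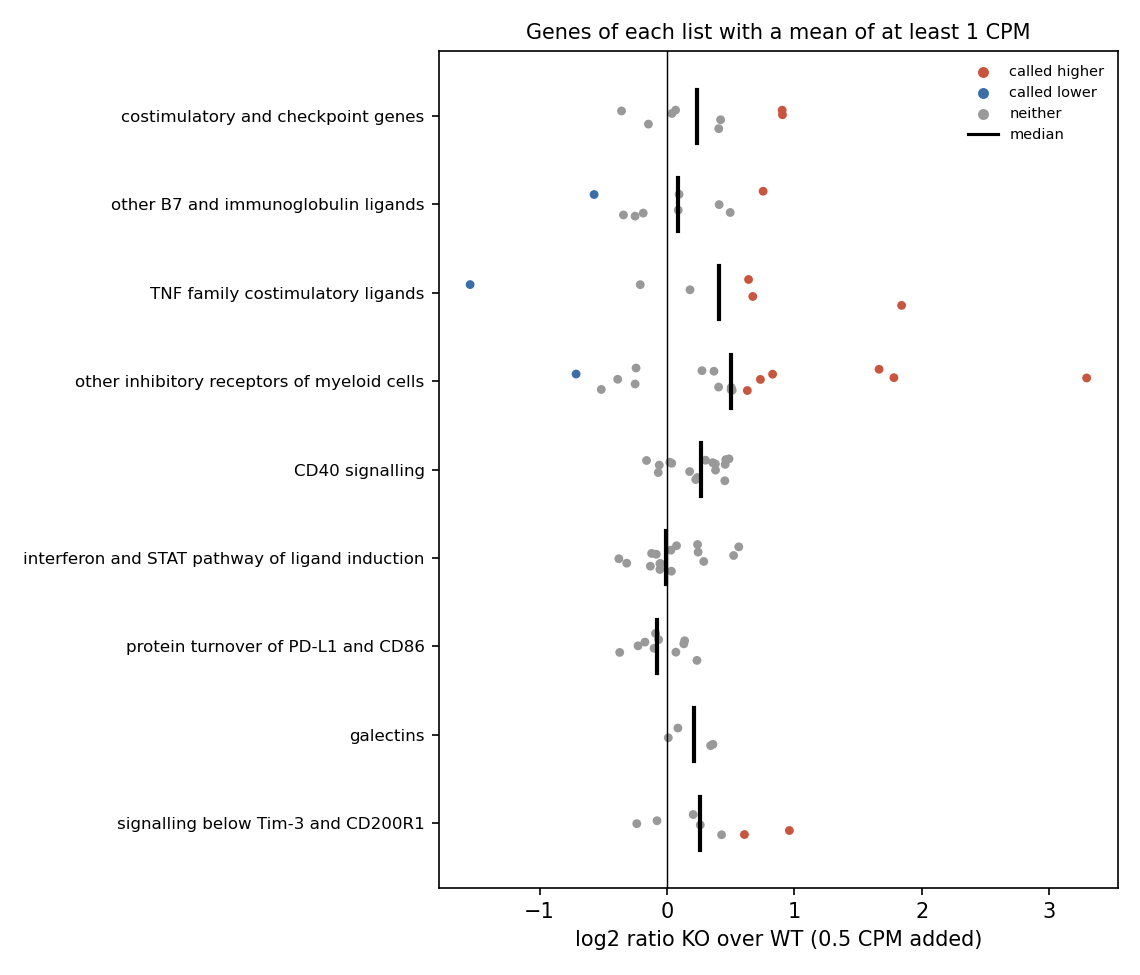
Log2 ratio of the KO over the WT library for each gene averaging 1 CPM or more, by list (rows). Red points were called higher, blue points lower and grey points neither. Black bars are the medians, which run from -0.08 for protein turnover to 0.50 for the list of other inhibitory receptors.

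Genes of the CD40 list and of the interferon and STAT list were not called. Over all genes 6.47% were called higher and 7.23% lower, and within 2-fold of the mean CPM of Cd86 4.05% and 2.55%. Counts of 0 among 16 genes are therefore not read as a trait of these lists. Of 16 genes of the CD40 pathway, 0 were called in either direction, 13 had a log2 ratio above 0, and the median was 0.27. Over all genes 6467 of 12495 had a log2 ratio above 0. Nfkb1, Rel, Tank and Nfkb2 had the ratios farthest from 1, from 1.37 to 1.40, and Nfkb1 stood at 141 CPM in WT and 198 CPM in KO. Of 16 genes of the interferon and STAT pathway 0 were called, and the median was -0.01. Stat2, which carries interferon signals, stood at 252 CPM in WT and 363 CPM in KO, a ratio of 1.44, while Stat3 was 1.30-fold lower (1.23 to 1.37) and Irf8 1.24-fold lower (1.19 to 1.30).

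Genes for the turnover of the PD-L1 and CD86 proteins differed little. Of 10 genes 0 were called, beside 6.47% of all genes called higher and 7.23% lower, and the median was -0.08. Stub1, a ubiquitin ligase gene, had the ratio farthest from 1 at 1.30-fold lower (1.10 to 1.55). Of 4 genes on the galectin list (Lgals1, Lgals3, Lgals8 and Lgals3bp, the last of which encodes a galectin-binding protein and not a galectin) 0 were called, and their median was 0.21. Lgals1 had a ratio of 1.29 (1.19 to 1.39), close to that of Lgals9, and Lgals3, the most abundant, stood at 2873 CPM in WT and 3050 CPM in KO. Below Tim-3 and CD200R1, 2 of 7 genes were called higher and 0 lower, beside 6.47% and 7.23% of all genes, with a median of 0.26. Dok2, the adaptor that CD200R1 recruits, had 430 reads in WT and 1077 in KO, a ratio of 1.96 (1.75 to 2.20). Dok1, a related adaptor, had a ratio of 1.36 (1.15 to 1.60). Ptpn6, which encodes the phosphatase SHP-1, had a ratio of 1.53 (1.47 to 1.58) and was not called with total counts. Bag6, which encodes a binding partner of the Tim-3 tail, was listed at 0 in both libraries. Cells of most kinds express Bag6, so that entry is not read as absence of its RNA. Over all 8 lists 12 of 85 genes were called higher and 3 lower, beside 6.47% and 7.23% of all genes.

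Markers of other cells differed between the libraries, and several of those cells can express the genes described here. In bulk RNA fewer cells of a type cannot be told apart from less RNA per cell. Over all genes 7.23% were called lower. Of 14 stromal markers 13 were called lower in KO, and their summed level was 1879 CPM in WT and 165 CPM in KO. Of 8 B cell markers 7 averaged 1 CPM or more and 6 were called lower. Blnk, which macrophages also express, made up most of their sum of 132 and 131 CPM, and the others had at most 49 reads in WT and 19 in KO. Of 12 dendritic cell markers 4 averaged 1 CPM or more and 3 of these were called lower (Fscn1, Ccr7 and Ccl22). The sum over all 12 was 26.7 and 9.20 CPM. Fscn1 alone made up most of the WT sum, at 15.8 CPM in WT and 3.11 CPM in KO. The defining dendritic cell genes Zbtb46 and Flt3 had 6 and 1 reads in WT and 8 and 2 in KO, and Cd209a had 0 in both.

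Monocyte markers (5 of 8 called lower) and neutrophil markers (4 of 10 called lower) were lower as well, at sums of 1141 and 883 CPM in WT against 412 and 631 CPM in KO. Of 12 macrophage markers 1 was called higher (Adgre1) and 1 lower (Lyz2), beside 6.47% and 7.23% of all genes, with a median log2 ratio of 0.01. Cre is expressed from the Lyz2 locus in the KO mice, so that locus itself differs between the genotypes. Its part in the Lyz2 ratio was not tested. The part of the other cell types in the levels of the 9 genes was not tested.

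**Figure D5:**
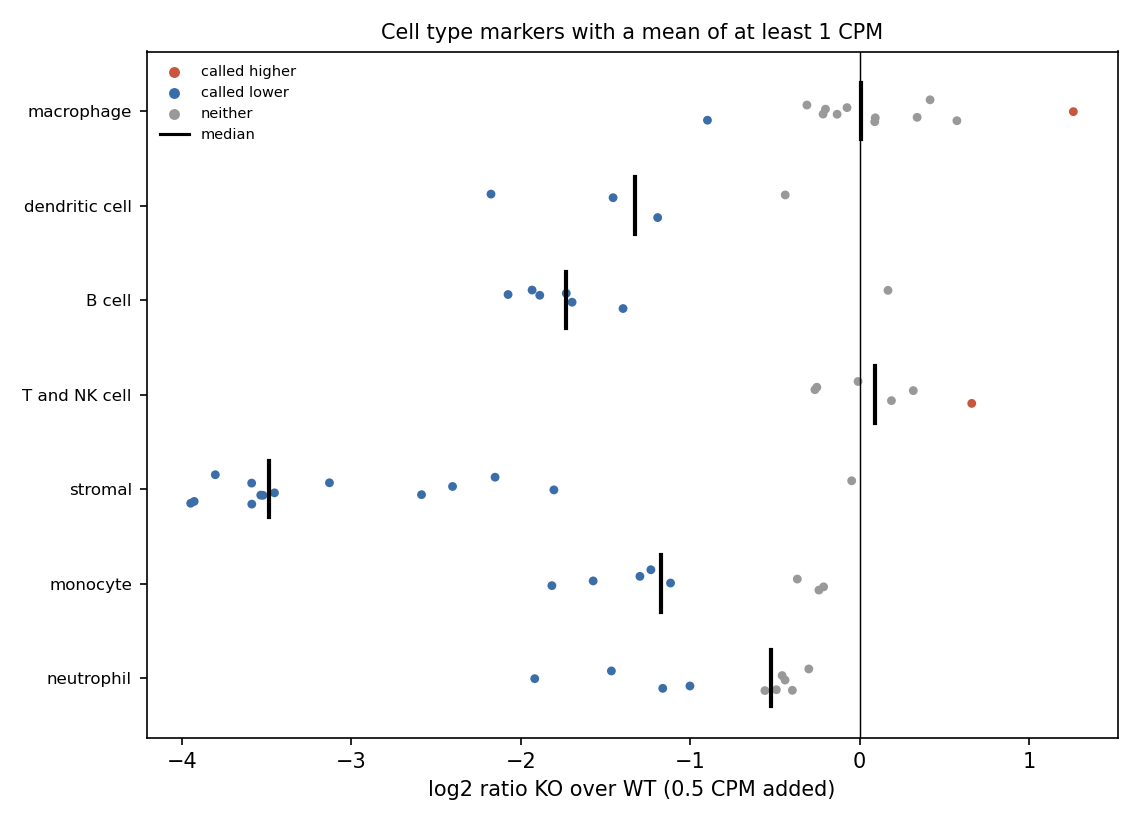
Log2 ratio of the KO over the WT library for cell type markers averaging 1 CPM or more, by cell type (rows). Red points were called higher, blue points lower and grey points neither, and black bars are the medians, from -3.49 for stromal markers to 0.09 for T and NK cell markers.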

How the data were processed

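RNA sequencing was compared between 1 WT and 1 KO library of marrow-derived macrophages. The authors deposited a table by gene symbol, whose values are taken to be raw read counts. The submitters' processing notes name HISAT2 and the build GRCm38. Which counting program, annotation and strand setting were used is not given in the sources used here. Library sizes were scaled with TMM (edgeR 4.0.16, R 4.3.3) over all 46095 genes and counts expressed as CPM. Log2 ratios were taken after adding 0.5 CPM. Ratio intervals are exact Clopper-Pearson intervals of the split of a gene's reads (scipy 1.17.1), and those between genes are conditional exact intervals of the odds ratio. PCR copies were not marked by molecular identifiers, so reads may repeat a molecule and the intervals cover counting error only. No test was run, since each genotype had 1 library. The ratio and interval calculation was tested on simulated data with Poisson counting error only, the error that the intervals assume. That simulation checks the calculation and cannot show how much mice or cultures vary. Exon lengths and positions came from GENCODE M21 (GRCm38), which matched 33989 symbols.

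The genes, lists and call rule were chosen with earlier results of these data known. All 9 genes, the lymphocyte partners, neighbouring genes, up to 4 genes per pathway list (those averaging 5 CPM or more, by size of log2 ratio) and up to 3 per marker list by level were to be named. Some genes that this rule takes are not reported here, and other genes named to complete a count were chosen after their values were seen. Scaling by total counts, DESeq2 1.42.0 size factors or the upper quartile, another added CPM, another filter, another fold and a thinned KO library were tried as alternatives.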

Additional observations from a re-analysis of the deposited data

How the results depend on the processing

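No paired analysis was possible because there was only 1 library of each kind, so none could be left out either. Of 63 recomputed log2 ratios of the 9 genes under 7 settings, 62 stayed inside the counting interval of the gene. The exception was Cd274 with total counts, 0.83 on the log2 scale in place of 0.90, still called higher. With a mean of 10 CPM or more required, 6 of the 9 genes remained and 1 was called higher, Cd274, since Cd40 falls under that filter. Of all genes at that filter 4.92% were called higher and 2.66% lower. With 2-fold needed for a call, 1 was called higher, Cd40, and the counts over the pathway lists were 4 higher and 1 lower, because the calls between 1.5-fold and 2-fold are lost by construction. At 2-fold 2.59% of all genes were called higher and 4.78% lower. Under the other settings, including the scaling to macrophage markers, which was chosen after the data were seen and barely differs from TMM, the counts of calls over the 9 genes did not move and those over all pathway lists stayed within 1.5 times. Of 176 recomputed counts for single lists 164 were within 1.5 times. Another added CPM could not move any count of calls, because calls use ratios without added CPM, so those unchanged counts are no check. Total counts moved the median log2 ratio of all genes from 0.01 to -0.06. Depth limits Pdcd1lg2 most, at 9 and 19 reads, and then Cd40.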
